A study of Mus musculus with 7 samples.

Results

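Fibroblasts and endothelial cells of the neonatal mouse heart were compared between myocardial infarction (MI) and a sham operation, in single-cell libraries made by droplet sequencing. A fibroblast was any cell with at least 1 UMI (unique molecular identifier, 1 per captured transcript) of Pdgfra, the platelet-derived growth factor receptor of mesenchymal cells, and none of Cdh5, the cadherin of endothelial junctions. An endothelial cell had at least 1 UMI of Cdh5 and none of Pdgfra. Cells had at least 500 UMIs, at least 300 genes, at most 15% mitochondrial UMIs and no UMI of Ptprc (CD45, the common leukocyte antigen). The rule took 5331 cells, 2666 fibroblasts and 2665 endothelial cells, of the 12498 cells kept in the 3 libraries compared and of 40158 in all 7 libraries.

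Both WT P1 MI libraries and the lone WT P1 sham library came from hearts of C57BL6/J mice of the age labelled P1, and their treatments were labelled MI and Sham. Hearts labelled MerTK KO, also P1, gave 1 MI and 1 sham library, which are shown beside them. In all of these the heart was perfused and digested, red and dead cells were removed, and CD45+ cells were mixed back with CD45- cells at 2 to 1, so shares of cells do not describe the tissue. The interval between surgery and collection, the hearts pooled per library and whether the MI libraries came from separate animals are not stated in the labels. Mertk is a receptor with which macrophages take up dying cells. Fibroblasts numbered 204 and 2171 in MI replicates 1 and 2 and 291 in sham, and endothelial cells numbered 137 and 2276 in MI and 252 in sham. Fibroblasts gave 4186451 and 27203814 UMIs in MI and 5220112 in sham, and endothelium gave 2497568 and 30291317 in MI and 4629837 in sham.

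The classes carried their markers. Col1a1, the main fibrillar collagen chain, reached 6047 and 5051 CPM (counts per 1e6 UMIs of the class in a library) in MI fibroblasts and 5585 CPM in sham fibroblasts. Pecam1, an adhesion molecule of endothelial junctions, reached 778 and 545 CPM in MI endothelium and 805 CPM in sham endothelium. The MI libraries were not alike. Over 3375 genes expressed in fibroblasts the median absolute log2 ratio was 0.263 between MI replicates 2 and 1, against 0.131 between replicate 1 and sham, and over 3515 genes in endothelium it was 0.306 against 0.101. The headers named Cell Ranger 6.1.0 for replicate 2 and 4.0.0 for replicate 1 and sham. Sex-linked genes differed too. The Y-linked Ddx3y was at 18.2 and 20.3 CPM in MI fibroblasts against 90.0 CPM in sham fibroblasts, and Xist, the RNA that coats the silenced X in female cells, stood at 954 and 441 CPM against 352 CPM but was not called. Injury and the sex of the animals can therefore not be told apart in these libraries.

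Fibroblasts of the neonatal heart make the collagen matrix, and after injury they can divide, take on contractile proteins and release chemokines that call in leukocytes. Endothelial cells line the vessels and endocardium, sprout under VEGF, and present adhesion molecules to blood cells. The epicardium, a mesothelial sheet over the heart, is a source of fibroblasts in development and switches genes on again after injury. Interferons and NF-kB are among the routes by which stromal cells answer signals from damaged tissue and macrophages.

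Promoters of 4 genes are shown because interferon and NF-kB genes were among those that rose; Cxcl10 and Bst2 were picked after their values were seen. The windows are the 250 bases before the start site on the gene's strand, from RefSeq on GRCm38.p6, with capitals where the window matched the NF-kB site, AP-1 (TGANTCA), STAT (TTCNNNGAA), hypoxia (ACGTG), ISRE (the interferon-stimulated response element) or the CArG box on either strand. Overlapping matches run together. Cxcl10 (chr5:92348890-92349139, minus strand) and Bst2 (chr8:71537473-71537722, minus strand) were higher in fibroblasts after MI in both libraries, whereas C3 (chr17:57228137-57228386, minus strand) and Saa3 (chr7:46715677-46715926, minus strand) were called higher in both classes.
Cxcl10: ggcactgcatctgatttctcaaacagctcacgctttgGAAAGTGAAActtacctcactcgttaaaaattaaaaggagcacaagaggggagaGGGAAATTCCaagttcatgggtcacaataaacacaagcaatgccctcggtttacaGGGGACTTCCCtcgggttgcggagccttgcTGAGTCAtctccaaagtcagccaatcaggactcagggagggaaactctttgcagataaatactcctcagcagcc
Bst2: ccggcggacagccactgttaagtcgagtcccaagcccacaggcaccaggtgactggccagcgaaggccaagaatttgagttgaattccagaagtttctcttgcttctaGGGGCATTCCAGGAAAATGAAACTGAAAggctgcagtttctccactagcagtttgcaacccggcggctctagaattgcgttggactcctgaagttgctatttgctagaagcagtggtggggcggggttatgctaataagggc
C3: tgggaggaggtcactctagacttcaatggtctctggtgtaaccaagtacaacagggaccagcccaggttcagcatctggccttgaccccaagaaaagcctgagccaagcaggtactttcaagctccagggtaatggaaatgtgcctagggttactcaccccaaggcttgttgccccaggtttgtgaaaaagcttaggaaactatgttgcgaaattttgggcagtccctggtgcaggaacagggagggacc
Saa3: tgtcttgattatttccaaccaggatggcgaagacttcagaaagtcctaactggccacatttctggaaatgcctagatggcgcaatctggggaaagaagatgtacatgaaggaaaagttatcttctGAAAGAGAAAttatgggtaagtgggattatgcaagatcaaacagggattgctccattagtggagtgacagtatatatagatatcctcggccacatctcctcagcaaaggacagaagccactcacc

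In Cxcl10 the capitals mark an ISRE on the opposite strand, NF-kB matches at 159 to 150 and 104 to 94 bases before the start, and AP-1 at 74 to 68. Bst2 held NF-kB, STAT and ISRE matches that overlapped between 142 and 115 bases before the start. Saa3 held 1 ISRE match and C3 none. Of the 24 genes at least 2-fold higher in both MI libraries in fibroblasts, 15 were in the promoter table, and 8 of these held the NF-kB site in a listed window, against 8.23% of all 27025 genes of the table. The match of Tmem176a and that of Tmem176b are the same bases of their shared upstream region, read on opposite strands, so the 8 genes hold 7 separate sets of matches. The ISRE was in 2 of the 15, against 3.46% of all genes. A match describes letters, not a bound factor.

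More genes were called in fibroblasts than in endothelium. After MI fibroblasts held more transcripts of complement C3, of clusterin and other secreted proteins, of epicardial keratins, of chemokines and of interferon-induced genes. By edgeR's quasi-likelihood test on the summed UMIs, 269 of 12366 genes rose (2.18%) and 18 fell (0.146%), at a Benjamini-Hochberg adjusted p under 0.05, a log2 fold change of at least 1 and both MI libraries on the same side of sham. Of the 269, 237 were at least 2-fold above sham in replicate 1, 250 in replicate 2 and 218 in both. In endothelium 19 of 11876 genes rose (0.16%) and 8 fell (0.0674%). A second count needed no test. Genes at least 2-fold apart from sham in both MI libraries, with at least 50 CPM and 20 UMIs on the higher side, numbered 24 higher (0.898% of 2673) and 1 lower (0.0326% of 3064) in fibroblasts, and 5 higher (0.179% of 2790) and 8 lower (0.252% of 3169) in endothelium. The test had 1 residual degree of freedom and assumed that the lone sham library varied like the MI libraries. DESeq2 called 74 genes in fibroblasts, of which 71 of its 72 higher genes were among the 269, but in endothelium it called Tagln and Ddx3y alone.

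**Figure D1:**
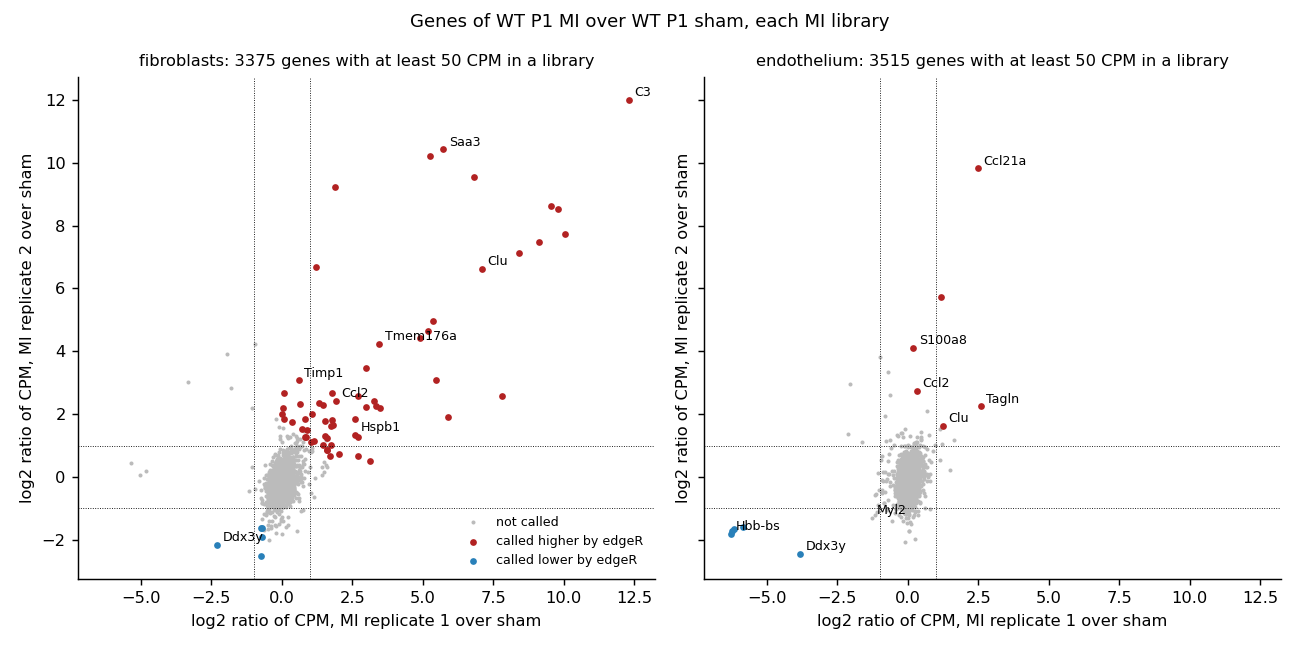
Log2 ratio of CPM of each MI library over sham, replicate 1 on the horizontal and replicate 2 on the vertical axis, for 3375 genes in fibroblasts (left) and 3515 in endothelium (right). Red points were called higher and blue points lower by edgeR, and dotted lines mark 2-fold. In fibroblasts many red points lie past 2-fold on both axes, with C3 highest, whereas in endothelium few do and the globin genes and Ddx3y lie low on both.

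The leading fibroblast genes were those of secreted and epithelial proteins. C3, the central complement protein, had 487 and 392 CPM in the MI libraries and 0 UMIs in sham, which against a floor of 3 UMIs in sham is at least 847-fold higher in replicate 1 and at least 682-fold higher in replicate 2. Clu, the secreted chaperone clusterin, had 226 and 162 CPM in MI against 1.53 CPM in sham (log2 fold change 7.03 ± 0.60 SE, adjusted p 1.02e-28). Trf, the iron carrier transferrin, had 99.8 and 74.8 CPM in MI and 2.30 CPM in sham. All 3 were far above sham in both MI libraries. Dmkn, dermokine, a secreted protein of epithelia, had 94.8 and 67.3 CPM in MI against 3.07 CPM in sham (4.77 ± 0.48). Tmem176a, an intracellular membrane protein, reached 66.4 and 114 CPM in MI and 5.94 CPM in sham, and its neighbour Tmem176b 132 and 183 CPM against 16.5 CPM. Hspb1, the small heat shock protein Hsp27, had 369 and 153 CPM in MI and 60.2 CPM in sham (2.15 ± 0.43, adjusted p 4.68e-05). Among these Hspb1 differed most between the MI libraries, yet both lay above sham.

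These genes went with epicardial markers. Of 9 epicardial and mesothelial markers, all 9 rose in fibroblasts, against 2.18% of all genes tested, with 342 and 274 CPM in sum after MI against 1.72 CPM in sham. The median log2 fold change was 11.39, or 5.50 with the 8 markers absent from sham set at the floor of 3 UMIs, beside 0.04 over all genes tested. Wt1, the transcription factor that marks epicardium, had 80.3 and 15.3 CPM in MI and 1.72 CPM in sham. Upk3b, a uroplakin of mesothelium, had 84.8 and 35.5 CPM in MI and 0 UMIs in sham. Fibroblasts with 2 or more UMIs of the list numbered 29 of 204 in MI replicate 1 (14.2%, exact 95% interval 9.73 to 19.8), 94 of 2171 in replicate 2 (4.33%, 3.51 to 5.27) and 2 of 291 in sham (0.687%, 0.0833 to 2.46). With each cell thinned to 2000 UMIs the shares were 4.95% and 1.85% in MI and 0 of 290 in sham, which allows up to 1.26% by the exact interval. Intervals and floors cover counting error only.

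Those few cells held most of the C3, Clu and Dmkn transcripts of the MI fibroblasts. In MI replicate 1 they had 23.1% of the class's UMIs but 99.0% of its C3, 97.6% of its Clu and 99.2% of its Dmkn, and in replicate 2 they had 7.14% of the UMIs but 58.1%, 71.3% and 96.4% of the same genes. The replicates parted for other leading genes, since these cells held 93.2% and 34.9% of Tmem176a and 85.9% and 30.3% of Tmem176b in replicates 1 and 2. Hspb1 was at 60.2 and 120.1 CPM in the other MI fibroblasts and 60.5 CPM in those of sham. On the CPM scale C3 reached 2089 and 3193 CPM in them and 6.21 and 177 CPM in the other fibroblasts of the MI libraries. With the epicardial-gene cells left out, an alternative added after the data were seen, 60 of 12147 genes rose (0.494%) and 5 fell (0.0412%), and 58 of the 60 were among the 269. By the 2-fold count only Ccl2 and Cxcl10 were then higher in both libraries and Ddx3y lower. Few cells of a kind and little RNA per cell cannot be told apart in these sums. The share of such cells was 30.8% in the KO MI and 10.4% in the KO sham library.

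**Figure D2:**
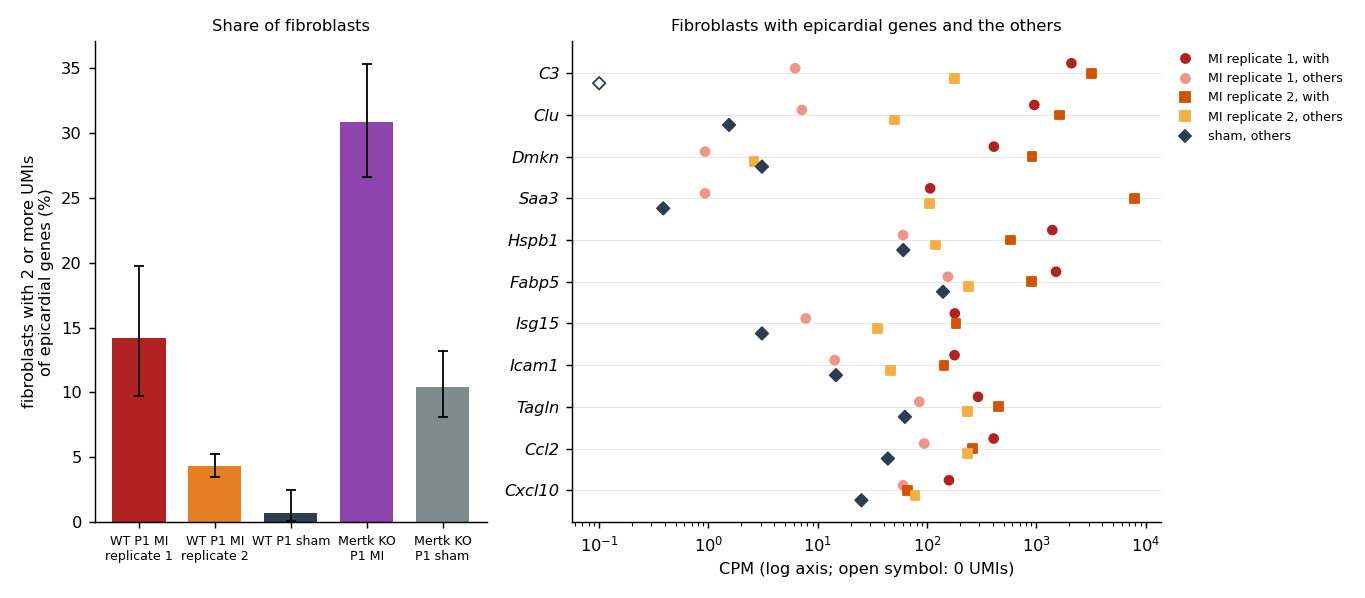
Left, percent of fibroblasts with 2 or more UMIs of the 9 epicardial genes in each P1 library, with exact 95% intervals. Right, CPM on a log axis of 11 genes in those cells and in the other fibroblasts of the WT libraries. The 14.2% and 4.33% of MI stand above the 0.687% of sham, and C3, Clu and Dmkn are far higher in the cells with epicardial genes, whereas Ccl2 and Cxcl10 lie above sham in the other MI fibroblasts too.

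Chemokines and adhesion molecules formed the next group. Ccl2, the chief attractant of monocytes, had 166 and 235 CPM in MI fibroblasts and 43.5 CPM in sham (2.29 ± 0.42, adjusted p 6e-06), and Ccl7, its close relative, had 72.1 and 128 CPM against 26.4 CPM. Cxcl10, an interferon-induced attractant of T cells, had 82.9 and 76.5 CPM in MI and 24.9 CPM in sham (1.74 ± 0.37). Icam1, which leukocyte integrins bind, had 52.1 and 53.3 CPM in MI and 14.9 CPM in sham. In each of these both MI libraries lay at least 2-fold above sham. Il33, an alarm cytokine of stromal nuclei, had 31.8 and 31.0 CPM in MI and 6.51 CPM in sham (2.34 ± 0.39). Of 15 chemokines and cytokines tested, 5 rose, the fifth being Cxcl2, and 8 were above sham in both libraries, against 2.18% and 28.2% of all genes tested. Without the epicardial-gene cells 3 of 16 rose and 4 of 16 were above sham in both, the second a share near the 24.1% of all genes tested. In fibroblasts without epicardial genes Ccl2 remained at 94.1 and 233 CPM in MI against 43.8 CPM in sham, and Cxcl10 at 60.2 and 77.3 CPM against 25.1 CPM, whereas Icam1 was at 14.3 and 46.5 CPM against 14.6 CPM and Ccl7 at 17.7 and 124 CPM against 26.6 CPM. For Icam1 and Ccl7 replicate 1 thus lay below sham.

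Interferon-induced genes were higher as a list. Of 17 tested, 11 rose and 16 were above sham in both MI libraries, against 2.18% and 28.2% of all genes tested, with a median log2 fold change of 3.34, or 2.76 with the 2 genes absent from sham at their floor. Isg15, a ubiquitin-like protein that tags other proteins under interferon, had 47.3 and 45.8 CPM in MI and 3.07 CPM in sham (3.99 ± 0.45, adjusted p 5.19e-16). Bst2, tetherin, which holds virus particles at the cell surface, had 59.0 and 70.8 CPM in MI and 20.3 CPM in sham. The replicates were close for both genes. Of 11 genes of MHC class I presentation 4 rose, among them H2-K1, a heavy chain, with 79.3 and 61.5 CPM in MI against 25.9 CPM in sham, and Psmb8, a subunit of the immunoproteasome, with 23.6 and 22.9 CPM against 4.21 CPM. In fibroblasts without epicardial genes the interferon list summed to 190.3 and 624 CPM in MI and 186 CPM in sham, and 3 of 14 tested rose, Isg15, Rsad2 and Iigp1, against 0.494% of all genes tested. Of the MHC class I genes there, Psmb8 alone was called and 3 of 11 were above sham in both libraries, against 24.1%. H2-K1 was there at 25.1 and 43.7 CPM in MI and 26.0 CPM in sham. By the interferon sum replicate 1 was then close to sham and replicate 2 above it.

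The acute-phase genes split the replicates. Of 21 tested, 8 rose and 15 were above sham in both MI libraries, against 2.18% and 28.2% of all genes tested. Saa3, serum amyloid A made locally in inflamed tissue, had 25.3 and 657 CPM in MI and 0.383 CPM in sham, on 106, 17877 and 2 UMIs. Hp, the haemoglobin binder haptoglobin, had 18.4 and 572 CPM in MI and 0.383 CPM in sham. Lcn2, lipocalin, an iron-withholding protein that neutrophils also make, had 1.43 and 68.7 CPM in MI and 0.575 CPM in sham. In all 3 replicate 2 lay far above replicate 1. The UMIs of replicate 1 were nearly all in the epicardial-gene cells, which held 97.2% of its Saa3, 94.8% of its Hp and 100% of its 6 Lcn2 UMIs. In the other fibroblasts Saa3 was at 0.931 and 106 CPM in MI and 0.385 CPM in sham, Hp at 1.24 and 459 CPM against 0.385 CPM, and Lcn2 at 0 and 45.3 CPM against 0.578 CPM. There 5 of the 21 rose and 10 were above sham in both libraries, against 0.494% and 24.1% of all genes tested. In each MI library Saa3 was higher in the cells with Ptprc UMIs than in the fibroblasts, and the part of leukocyte RNA was not tested. Neutrophil markers in the same fibroblast sums were at 7.17 and 249 CPM in MI and 14.8 CPM in sham, with 1 of 5 tested called, and their part in the result was not tested.

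**Figure D3:**
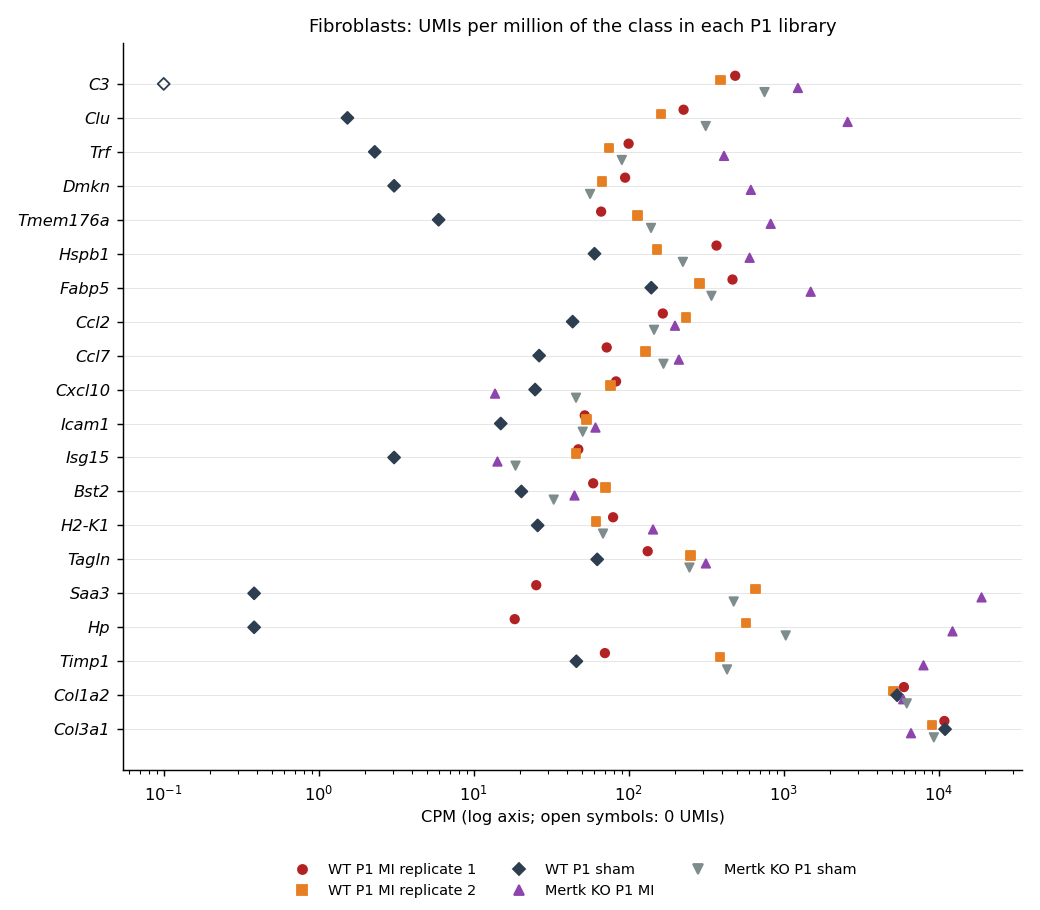
CPM on a log axis of 20 genes in fibroblasts of the WT P1 MI, WT P1 sham, Mertk KO P1 MI and Mertk KO P1 sham libraries, with open symbols for 0 UMIs. WT sham lies below both MI libraries for all but the collagen genes, and KO sham lies above WT sham for the same genes.

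Contractile and matrix genes divided. Tagln, transgelin, an actin-binding protein of smooth muscle and myofibroblasts, had 133 and 250.3 CPM in MI fibroblasts and 62.6 CPM in sham (1.70 ± 0.40, adjusted p 0.00177). Mural cell markers in the same fibroblast sums were at 104 and 141 CPM in MI and 68.2 CPM in sham, with 8 of 10 above sham in both libraries and a median log2 fold change of 1.66, and Myh11, smooth muscle myosin, was called on 16 and 244 UMIs in MI and 1 in sham. Their part in the result was not tested. Tnc, the injury matrix protein tenascin C, had 151 and 73.4 CPM in MI and 46.6 CPM in sham, and Timp1, an inhibitor of matrix metalloproteinases, had 70.2 and 389 CPM against 46.0 CPM. With Ddah1 these were the 4 of 17 myofibroblast and scar genes that rose, and 12 of the 17 were above sham in both libraries, where all genes tested had 2.18% called and 28.2% above. Without the epicardial-gene cells Tnc was at 61.2 and 74.4 CPM in MI and 44.7 CPM in sham and was no longer called. Timp1 was still called there, but replicate 1 was close to sham, with 47.5 and 266 CPM in MI against 46.3 CPM. Tagln was still called too, at 84.8 and 235 CPM in MI against 62.6 CPM in sham. Its replicate 1 was then less than 2-fold above sham, and the epicardial-gene cells held 50.8% of its UMIs in that replicate. Of 17 collagens 0 rose and 0 fell by edgeR. Over all genes tested 2.18% rose and 0.146% fell, so a list of this size would often hold no call. Col1a2 had 5965 and 5116 CPM in MI and 5393 CPM in sham, and Col3a1 had 10882 and 9041 CPM against 10994 CPM. Of 14 elastic fibre and proteoglycan genes Fmod (fibromodulin) and Prg4 (lubricin) rose, and Prg4 rested on replicate 2, with 2 and 1274 UMIs in MI and 1 in sham.

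Lipid carriers and prostaglandin genes were among the higher genes. Fabp5, a fatty acid binding protein, had 467 and 286 CPM in MI fibroblasts and 139.8 CPM in sham, and Fabp4 had 66.2 and 125 CPM against 19.3 CPM. Without the epicardial-gene cells Fabp5 was at 155 and 239 CPM in MI and 139.9 CPM in sham. Fabp4 was there at 8.38 and 121 CPM against 19.5 CPM, so that replicate 1 lay below sham, and 0 of 10 fatty acid uptake genes were called by edgeR. Capillary endothelial genes, a list that holds Fabp4, were at 117 and 201 CPM in the sums of all MI fibroblasts and 68.0 CPM in sham, with Aqp1, a water channel, also called. Their part in the result was not tested. Of 14 eicosanoid genes 4 rose, against 2.18% of all genes tested. Ptgs1, the constitutive cyclooxygenase, had 25.8 and 13.9 CPM in MI and 2.49 CPM in sham (3.01 ± 0.46, adjusted p 8.7e-09). The other three were Ptges, a prostaglandin E synthase, Hpgd, which breaks prostaglandins down, and the receptor Ptger3, which had 38 and 48 UMIs in MI and 0 in sham. None of the eicosanoid genes was called in fibroblasts without epicardial genes, where 12 were tested. Of 27 growth factors and secreted signals Pdgfa, Rspo1 and Rspo3 rose, against 2.18% of all genes tested. Rspo1, which strengthens Wnt signals, had 30.1 and 14.3 CPM in MI against 1.34 CPM in sham. Without the epicardial-gene cells 0 of 25 were called by edgeR. Over all genes tested there 0.494% rose and 0.0412% fell, so lists of 10 to 25 genes would mostly hold no call.

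Genes of mitosis were above sham throughout. All 20 were above sham in both MI libraries in fibroblasts, against 28.2% of all genes tested, and the list summed to 757 and 1124 CPM in MI and 525 CPM in sham. The 4 that rose were Cenpf, Cenpe, Ccnb2 and Kif20a, genes of kinetochore, cyclin and spindle function. Cenpf had 65.7 and 99.5 CPM in MI and 35.2 CPM in sham (1.32 ± 0.36, adjusted p 0.0139). Of 20 genes of DNA replication 0 were called and 4 were above sham in both libraries, against 2.18% and 28.2% of all genes tested. A list of this size would often hold no call. Pcna was at 83.8 and 93.1 CPM in MI and 103 CPM in sham. After thinning to 2000 UMIs, fibroblasts with 2 or more UMIs of the mitosis list made up 8.42% and 13.1% in MI and 6.90% in sham (unthinned 23.5% and 24.7% against 16.5%), and the interval of replicate 1, 4.98 to 13.1, held the sham share. In fibroblasts without epicardial genes 19 of the 20 mitosis genes were still above sham in both libraries, against 24.1% of all genes tested, and Cenpe alone was called.

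Few fibroblast genes fell. Of the 18 called lower, 4 were Y-linked; 3 of the other 14 are given here. Hmcn2, a matrix protein of the hemicentin family, had 71.9 and 21.1 CPM in MI and 121 CPM in sham (-1.38 ± 0.33, adjusted p 0.00181). Scara5, a ferritin receptor of resting fibroblasts, had 65.2 and 28.5 CPM in MI against 107 CPM in sham, and Ret, a receptor tyrosine kinase, had 44.7 and 24.7 CPM against 75.5 CPM. In all 3 replicate 2 was the lower of the MI libraries. The same genes were also lower in the knockout pair, where Hmcn2 had 3.50 CPM after MI and 29.6 CPM in sham, Scara5 9.24 and 53.5 CPM, and Ret 8.11 and 36.9 CPM. In that pair only 30.3% of all genes tested were above sham after MI, so lower was the common direction. None of the 3 was called in fibroblasts without epicardial genes, where the 5 called lower were Ddx3y, Eif2s3y, Uty, Kdm5d and Lsamp.

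**Figure D4:**
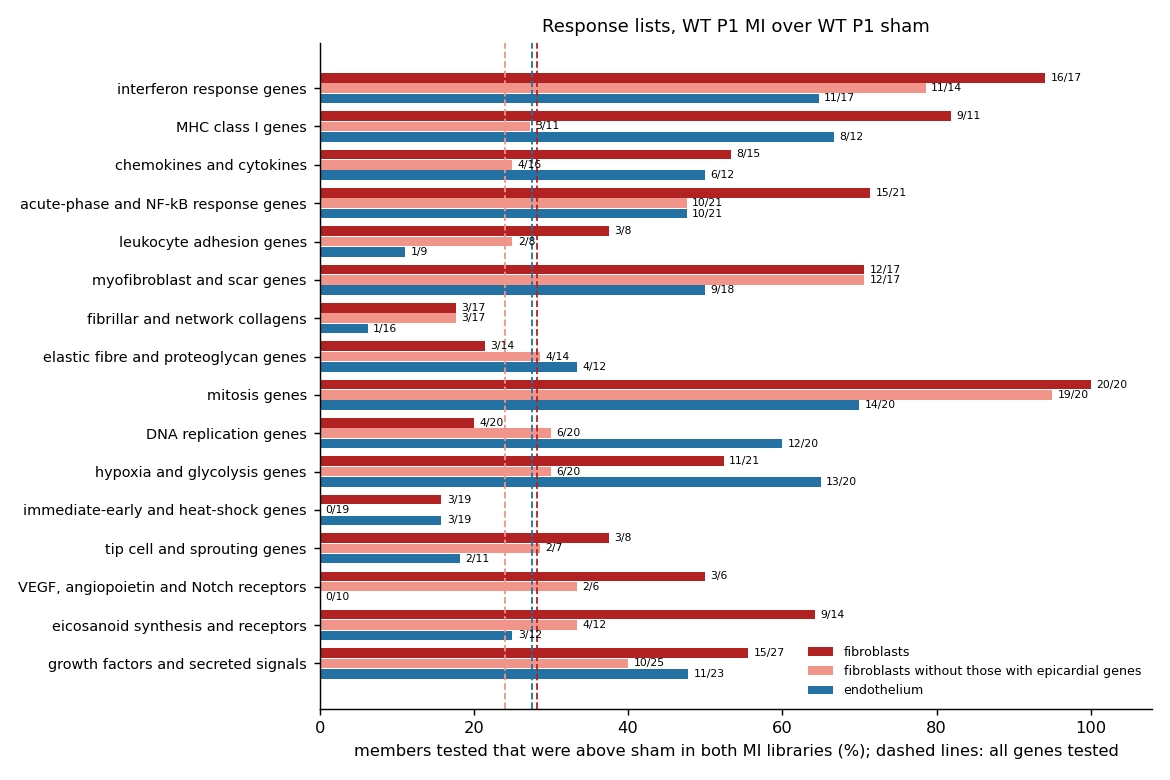
Percent of tested members of 16 gene lists that were above sham in both WT P1 MI libraries, in fibroblasts, in fibroblasts without those with epicardial genes, and in endothelium, with the counts at the bars and the share over all genes tested as dashed lines. Mitosis and interferon genes stand above the dashed lines in all 3 sets, collagens below, and the MHC class I bar drops to 3 of 11 without the epicardial-gene cells.

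In endothelium the called genes included the contractile gene Tagln and the secreted Clu among those that rose, and globin and Y-linked genes among those that fell. Tagln had 66.9 and 52.9 CPM in MI endothelium and 11.0 CPM in sham (2.45 ± 0.43, adjusted p 6.49e-06). Acta2, smooth muscle actin, had 145 and 129 CPM in MI and 62.9 CPM in sham and passed the 2-fold count but not the test (adjusted p 0.655). Mural cell markers in the same sums were at 919.7 and 670.4 CPM in MI and 593 CPM in sham, with 0 of 9 called and 7 above sham in both libraries. The smooth muscle calponin Cnn1 was at 0 and 0.858 CPM in MI and 0 CPM in sham, and the pericyte gene Rgs5 at 606 and 397 CPM against 377 CPM. The part of mural cells in the result was not tested. Clu had 50.8 and 67.3 CPM in MI endothelium against 21.6 CPM in sham (1.50 ± 0.40, adjusted p 0.0395). Iigp1, an interferon-induced GTPase, had 139 and 181 CPM in MI and 62.6 CPM in sham, but was not called (adjusted p 0.219). Of the 17 interferon genes, 0 were called in endothelium by edgeR and 11 were above sham in both libraries, against 27.5% of all genes tested. Over all genes tested 0.16% rose there, so a list of this size would mostly hold no call. At an unadjusted p under 0.05 endothelium had 276 of the 11876 genes tested by edgeR, a share under 0.05.

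Spry2, a brake on growth factor receptors, rose in endothelium, with 20.8 and 37.8 CPM in MI and 8.64 CPM in sham (1.85 ± 0.41, adjusted p 0.00214). Of the 19 genes that rose, 17 were higher in replicate 2 than in replicate 1. Ccl2 had 10.8 and 58.2 CPM in MI and 8.64 CPM in sham, Timp1 had 4.80 and 31.2 CPM against 3.46 CPM, and Ccl21a, a chemokine of lymphatic endothelium, had 1 and 2966 UMIs in MI against 0 in sham. The neutrophil gene S100a8 had 5.61 and 87.4 CPM in MI endothelium and 4.97 CPM in sham. By edgeR 0 of 11 tip cell genes and 0 of 10 VEGF, angiopoietin and Notch receptors were called in endothelium. Over all genes tested 0.16% rose and 0.0674% fell there, so lists of this size would mostly hold no call. Kdr, the main VEGF receptor, had 821 and 558 CPM in MI and 791 CPM in sham. Of the mitosis list 0 of 20 were called and 14 were above sham in both libraries, against 27.5% of all genes tested. After thinning 12.9% and 24.9% of MI endothelial cells had 2 or more UMIs of the list against 13.2% in sham (unthinned 29.9% and 39.6% against 33.3%).

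The 8 genes that fell in endothelium were 4 globins, 3 Y-linked genes and the histone gene Hist1h2an. The beta globin Hbb-bs had 21.6 and 487 CPM in MI and 1713 CPM in sham (-2.67 ± 0.44). Cardiomyocyte markers summed to 579 and 758 CPM in MI and 1168 CPM in sham, with 0 of 11 called and 8 below sham in both libraries, against 29% of all genes tested. Myl2, the ventricular myosin light chain, had 167 and 166 CPM in MI and 409.9 CPM in sham (-1.28 ± 0.41, adjusted p 0.289). In fibroblasts the erythroid markers were at 11.7 and 503 CPM in sum in MI and 378 CPM in sham. The cardiomyocyte markers were there at 296 and 677 CPM in MI and 284 CPM in sham. Of 10 tested 0 were called and 5 were above sham in both libraries, against 28.2% of all genes tested. Without the epicardial-gene cells 11 of 11 were above sham in both, against 24.1%. Ddx3y had 4.80 and 13.0 CPM in MI endothelium and 71.1 CPM in sham. The part of RNA from erythroid and heart muscle cells in these sums was not tested.

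Genes common to both classes were few. By the 2-fold count Clu and Tagln were higher (0.0956% of 2092 genes) and Ddx3y was lower (0.0426% of 2346) in both. In fibroblasts without the epicardial-gene cells neither Clu nor Tagln passed that count. By edgeR 12 genes rose in both, which is 4.46% of the genes that rose in fibroblasts and 63.2% of those that rose in endothelium (0.108% of the 11122 genes tested in both). They were Clu, Tagln, Timp1, Ccl2, C3, Saa3, Lcn2, Krt7, Upk3b, Tsix, Cma1 and Cpa3. The 3 that fell in both were Ddx3y, Eif2s3y and Uty (0.027%), all Y-linked. Most of the 12 had few UMIs in MI endothelium of replicate 1, with 3 for C3, 2 for Lcn2, 7 for Saa3 and 1 each for Krt7 and Upk3b. Cma1 and Cpa3, proteases of mast cells, were at 2.00 and 51.1 CPM and at 1.20 and 21.1 CPM in MI endothelium, against 0.864 and 0.432 CPM in sham, while cells with Ptprc UMIs in the same libraries had 1158 and 467 CPM of Cma1 in MI and 669.8 CPM in sham. Saa3 was at 561 and 887 CPM in the MI cells with Ptprc UMIs and at 0.517 CPM in those of sham. In each MI library this was above its level in the fibroblasts. For Tagln the same cells had 1.53 and 36.0 CPM in MI and 5.43 CPM in sham, below its level in the endothelium of each library. The part of leukocyte RNA in the values of these genes was not tested. When Ptprc-bearing cells were kept in the classes, endothelium had 2 calls, Saa3 and Ddx3y, and fibroblasts 246.

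**Figure D5:**
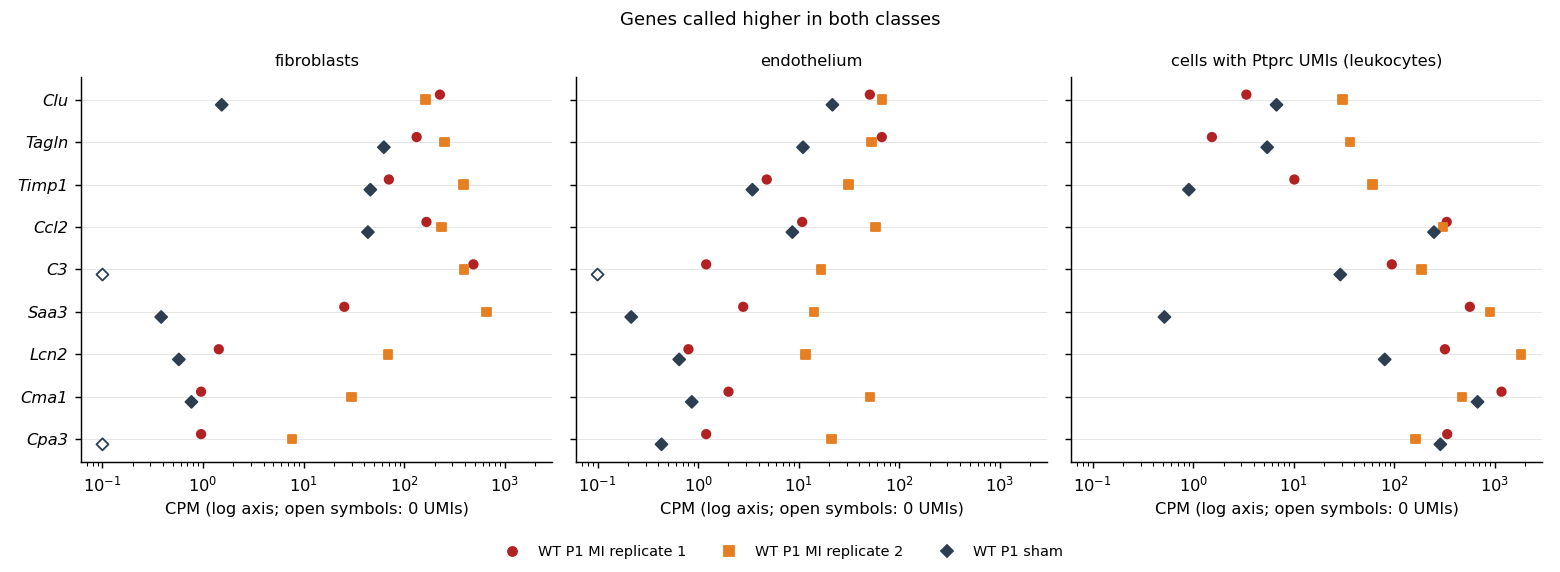
CPM on a log axis of 9 genes called higher in both classes, in fibroblasts, endothelium and cells with Ptprc UMIs of WT P1 MI replicate 1, MI replicate 2 and sham, with open symbols for 0 UMIs. All 9 lie above sham in both MI libraries of both classes, as the call requires, and Clu and Tagln alone passed the 2-fold count in both. Lcn2, Cma1 and Cpa3 are higher in the cells with Ptprc UMIs than in either class. In each MI library Saa3 is also higher in the cells with Ptprc UMIs than in the fibroblasts.

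The difference between the classes was tested as such. Both classes of the 3 libraries were put in 1 edgeR fit with library as a block, which left 1 residual degree of freedom. Of 13142 genes 0 were called as responding differently in fibroblasts than in endothelium (0%, lowest adjusted p 0.177). At an unadjusted p under 0.05 the same fit had 694 genes, a share close to 0.05. No call does not mean that the responses were alike. DESeq2 called 11, all higher in fibroblasts. The count was 263 with no filter on low counts and 23 with thinned cells, so it depended on the tool and the filter. Without the epicardial-gene cells 28 genes were called, 22 more positive in fibroblasts and 6 in endothelium.

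The knockout pair, which shares no library with the WT comparison, had 1 library a group and was not tested. Its Y-linked genes differed in the direction opposite to WT. In fibroblasts without epicardial genes Ddx3y was at 40.6 CPM in KO MI and 0 CPM in KO sham, and Eif2s3y at 22.4 and 0 CPM. Injury and the sex of the animals can therefore not be told apart in this pair either. Of the 269 genes that rose in WT fibroblasts, 71.4% were above KO sham in KO MI fibroblasts, against 30.3% of all genes tested, and 39.0% were at least 2-fold above it, against 4.18%. Clu had 2585 CPM in KO MI and 314 CPM in KO sham fibroblasts, and Saa3 18902 and 476 CPM. Cxcl10 went the other way, with 13.7 CPM in KO MI and 45.7 CPM in KO sham, as did Isg15, with 14.2 and 18.6 CPM. Without the epicardial-gene cells Cxcl10 was still lower, at 9.83 CPM in KO MI and 46.5 CPM in KO sham. Isg15 was then higher, at 17.4 CPM in KO MI against 5.71 CPM in KO sham. Of the 24 fibroblast genes at least 2-fold higher in both WT MI libraries, 22 were higher in KO MI than in KO sham, against 32.6% of the genes that could pass that count, and 12 were at least 2-fold higher, against 1.98%. The KO sham library was itself at least 2-fold above WT sham for 20 of these 24, and it lay below both WT MI libraries for 10. Tagln in endothelium was lower in KO MI, at 11.0 CPM, than in KO sham, at 34.9 CPM.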

How the data were processed

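Mouse heart cells were profiled with the 10x Genomics 3' chemistry, per the labels' protocols. The authors deposited unnormalized UMI counts for every gene in each barcode. The processing notes of the submitters name Cell Ranger and the build GRCm38 (mm10). The file headers name Cell Ranger 6.1.0 for WT P1 MI replicate 2 and 4.0.0 for the other P1 libraries. Further filters by the authors are not given in the sources used here.

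Counts were summed per class and library, since cells are not replicates. No barcode was shared between sham and MI replicate 1, 4 were between sham and replicate 2, and 3 between the MI libraries. Testing used edgeR 4.0.16 under R 4.3.3 (quasi-likelihood, TMM scaling, filterByExpr), and the scripts were tested on simulated data with known changes. SE is the absolute log2 fold change over the square root of F. TMM moved the median of all genes by less than 0.1 on the log2 scale. P-values rest on the spread between the 2 MI libraries, which edgeR shares across genes and which may be technical. The lone sham library adds no spread of its own. Doublets stayed in the main counts and were removed with Scrublet in scanpy 1.11.5 as an alternative. Intervals are exact 95% intervals. A 2-fold ratio had 0.5 counts added per library.

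Named genes were those farthest from sham in both MI libraries, up to 12 each way per class, and up to 4 members per list. The members, rules and lists were chosen with earlier results of these data known. Alternatives were library totals, DESeq2 1.42.0, no filter on low counts, all 7 libraries in 1 fit, other cell and class filters, thinned cells, removal of doublets, cycling cells or subtypes, and each MI library left out.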

Additional observations from a re-analysis of the deposited data

How the results depend on the processing

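The 1 sham library, 1 residual degree of freedom and the small MI replicate 1 (204 fibroblasts, 137 endothelial cells) limit every comparison. No paired analysis was possible because the sham library carries no replicate number and the groups share none. With 1 MI library left out no residual degrees of freedom remain, so edgeR counts could not be made.

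Against 287 calls in fibroblasts and 27 in endothelium, DESeq2 gave 74 and 2, thinned cells 12 and 9, all 7 libraries 120 in fibroblasts, leaving out cycling cells 148, leaving out subtype-marked cells 23, leaving out fibroblasts with epicardial genes 65, and keeping cells with Ptprc 2 in endothelium. Against 25 and 13 genes at least 2-fold apart, thinned cells gave 43 and 26, doublet removal 8 in endothelium, and in fibroblasts leaving out cycling cells gave 13, subtype-marked cells 6 and epicardial-gene cells 3. Leaving out 1 MI library gave 62 to 119 in fibroblasts and 21 to 91 in endothelium, always more without replicate 1. Genes higher in both classes numbered 2, and 1 with TMM, the stricter cell filter, the stricter class rule, doublet removal, without cycling cells or with Ptprc kept, 0 with thinned cells, without subtype-marked or without epicardial-gene cells, and 3 to 13 with 1 MI library left out. Genes lower in both numbered 1, and 2 with the stricter class rule, 4 with thinned cells or without cycling cells, and 4 to 9 with 1 MI library left out. For the difference between classes, in place of 0, DESeq2 gave 11, no filter on low counts 263, the stricter class rule 2, thinned cells 23, doublet removal 3, leaving out erythroid, mitochondrial and ribosomal genes 2, subtype-marked cells 1 and epicardial-gene cells 28. Among named genes Dmkn turned to -0.49 in fibroblasts without epicardial genes and Igfbp3 to -0.16 without subtype-marked cells, neither then called. Of 812 alternative values of called genes, 166 were no longer called. The causes were not tested, other than that thinning and leaving out cells reduce the UMIs.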
